A study of Homo sapiens with 6 samples.

Results

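Amino acid transporters were followed in the established human lymphoma line SU-DHL-8 (diffuse large B-cell lymphoma) exposed to GSK3685032, an inhibitor of the maintenance DNA methyltransferase DNMT1 (3 libraries), or to the solvent DMSO (3 libraries). Members were all genes of the deposited expression table whose symbols belong to the families SLC1, SLC3, SLC6, SLC7, SLC36, SLC38 and SLC43, which gave 48 of 35974 genes. All 6 libraries come from the same line, labelled as wild type for DNMT1 and taken from a lymph node, and neither dose nor length of exposure is stated in the labels used here. The treatment labels of inhibitor replicates 2 and 3 end in other digits (GSK3685033 and GSK3685034), while their titles and the design of the series place them with replicate 1, and they were kept as 1 group.

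Amino acids cross membranes through carriers that differ in substrate and in driving force. SLC1 and SLC38 carriers use the sodium gradient to bring in glutamate, glutamine and small neutral amino acids, whereas many SLC7 light chains exchange 1 amino acid for another and reach the cell surface only when bound to an SLC3 heavy chain. SLC6 carriers move neurotransmitters, osmolytes and amino acids with sodium and chloride, and SLC36A1 and SLC38A9 act at the lysosome, where amino acids are reported to the growth kinase mTORC1. Proliferating lymphoid cells are known for high expression of the glutamine carrier SLC1A5 and of the SLC7A5 and SLC3A2 pair.

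The total estimated count per library lay between 53846028 and 56795603 with the inhibitor and between 57451935 and 75304441 with DMSO, or 13461507 to 18826110 read pairs at about 4 counts per pair. DNMT1 itself fell to 12.7 ± 0.774 FPKM with the inhibitor, against 33.0 ± 0.690 FPKM with DMSO (SD, n = 3 each; edgeR adjusted p = 5.38e-08). B-cell markers were abundant in both groups, with 6 markers summing to 797 to 863 FPKM with the inhibitor and 862 to 879 FPKM with DMSO. The 4 epithelial markers summed to 2.74 to 4.15 FPKM with the inhibitor, mostly KRT18, and to at most 0.0144 FPKM with DMSO, the 4 myeloid markers to 0.746 to 1.01 and 0.568 to 0.798 FPKM, and the 4 fibroblast markers to 0.459 to 0.656 and 0.0988 to 0.132 FPKM. Of the 4 T-cell markers only CD3E was in the table, at 0.0295 to 0.302 FPKM with the inhibitor and 0 with DMSO. Single markers went different ways: EPCAM was at 0.384 to 0.499 FPKM with the inhibitor and 0 with DMSO, COL1A2 at 0.240 to 0.396 and 0.00417 to 0.00839 FPKM, and PDGFRB at 0.0969 to 0.131 and 0 FPKM, while CDH1, ITGAM and DCN stayed at or under 0.0233 FPKM in every library. The part of other cell types in the results was not tested. Ribosomal protein and mitochondrial genes took 7.91% ± 0.161 and 7.54% ± 0.148 of counts with the inhibitor and 4.97% ± 0.158 and 5.51% ± 0.517 with DMSO (n = 3 each), and their part in the results was not tested. These are bulk libraries, in which fewer cells of a type and less RNA per cell cannot be told apart.

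Of the 48 members, 36 passed the filter on low counts and 12 did not. With the inhibitor, 16 of these 36 were higher and 10 lower at an adjusted p under 0.05 (edgeR quasi-likelihood test, adjusted over 20783 genes). Over all tested genes 38.1% were higher and 27.3% lower, or 65.4% in either direction, and the members' shares of 44.4% and 27.8% lay near this background. The median log2 fold change was 0.19 over the 36 members and 0.14 over all tested genes. FPKM of the groups did not overlap for 27 of the 36, against 71.7% of all tested genes. Among the 36, 11 were called and at least 2-fold higher and 2 called and at least 2-fold lower, against 25.3% and 8.1% of all tested genes. Under upper-quartile scaling the median over the 20783 genes was 0.17 higher (log2), with 17 higher and 9 lower members against 9312 and 4344 of all genes.

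The members nonetheless divided by level. Carriers abundant in DMSO-treated cells were mostly lower with the inhibitor. Those between 0.1 and 1 FPKM were mostly higher, some of them members whose direction the filter nearly fixed. Of 11 tested members with a mean of at least 10 FPKM over all 6 libraries, 7 were lower and 3 higher, and at a mean of 1 to 10 FPKM 3 were lower and 6 higher. At 0.1 to 1 FPKM 7 of 10 were higher and 0 lower, and none of the 4 tested members under 0.1 FPKM was called (edgeR adjusted p from 0.518 to 0.911 for SLC6A4, SLC6A12 and SLC6A13, and 0.204 for SLC6A19). All genes were ordered alike above 0.1 FPKM, with 55.2% lower and 26.9% higher at 10 FPKM and above, 34.5% lower and 33.8% higher at 1 to 10 FPKM, and 9.89% lower and 43.2% higher at 0.1 to 1 FPKM. Under 0.1 FPKM, unlike the 4 members, 58.6% of 2101 tested genes were higher and 3.43% lower. Of these 2101 genes, 707 were at 0 in all DMSO libraries. 4 of the 16 higher members were at 0 in all DMSO libraries, so that passing the filter already required counts with the inhibitor and nearly fixed their direction. The same held for SLC7A2, which had 4 counts over the DMSO libraries. SLC1A7, SLC36A2, SLC6A15 and SLC7A2, all of this kind, are among the 7 higher members at 0.1 to 1 FPKM. Of all 6844 tested genes at that level, 895 were at 0 in all DMSO libraries. Summed over all 48, transporter FPKM came to 691 ± 13.5 with the inhibitor and 854 ± 8.97 with DMSO, or 0.240% and 0.319% of all FPKM. At least 1 FPKM was reached by 23 to 25 members per library with the inhibitor and by 19 in each DMSO library.

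**Figure D1:**
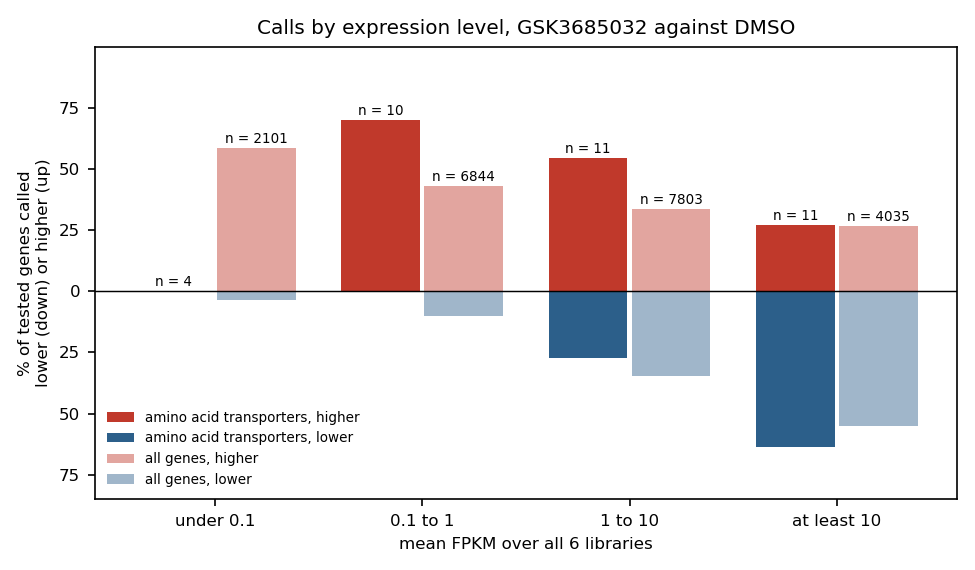
Percentage of tested genes called higher (upward bars) or lower (downward bars) with GSK3685032 against DMSO, by mean FPKM over all 6 libraries, for amino acid transporters (dark) and all genes (pale), with the number tested above each pair. In both, the share called lower is largest at 10 FPKM and above, where it is 7 of 11 transporters.

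The carriers of glutamine and small neutral amino acids held the largest summed level of any role class, 289 ± 6.94 FPKM with the inhibitor and 393 ± 4.43 FPKM with DMSO (n = 3 each). SLC1A5 (ENSG00000105281, GRCh38 chromosome 19, 46774883 to 46788594), the sodium-dependent glutamine exchanger, measured 117, 112 and 111 FPKM with the inhibitor and 166, 168 and 164 FPKM with DMSO. The groups were far apart, and the gene fell by 0.56 on the log2 scale (SE 0.042, edgeR adjusted p = 2.41e-06). Its close relative SLC1A4 (ENSG00000115902, chromosome 2, 64988477 to 65023865), which exchanges alanine, serine and cysteine, measured 6.21, 5.98 and 5.77 FPKM with the inhibitor and 19.4, 20.1 and 20.2 FPKM with DMSO. That was the steepest fall among called members, by 1.74 on the log2 scale (SE 0.051, edgeR adjusted p = 1.29e-08).

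SLC38A2 (chromosome 12, 46358188 to 46372773), the sodium-coupled carrier that is induced when amino acids run short, measured 103, 96.0 and 108 FPKM with the inhibitor and 128, 127 and 127 FPKM with DMSO, and fell by 0.32 on the log2 scale (SE 0.048, edgeR adjusted p = 0.000252). SLC38A1 (chromosome 12, 46183063 to 46270017), a sodium-coupled glutamine carrier, measured 62.0, 66.1 and 68.0 FPKM against 77.8, 82.7 and 78.1 FPKM with DMSO, and fell by 0.29 (SE 0.043, edgeR adjusted p = 0.000212). Both falls were small beside the other changes, and under upper-quartile scaling they were 0.15 and 0.12 on the log2 scale (log2 fold changes of -0.15 and -0.12, edgeR adjusted p = 0.0202 and 0.0352). The third family member of this role that was expressed went the other way. SLC38A5 (ENSG00000017483, chromosome X, 48458537 to 48470177), a glutamine carrier coupled to sodium and protons, measured 2.60, 2.06 and 2.14 FPKM with the inhibitor and 0.146, 0.319 and 0.302 FPKM with DMSO (log2 fold change 3.11, SE 0.280, edgeR adjusted p = 7.57e-06). Its level with the inhibitor remained below those of SLC38A1 and SLC38A2 in every library.

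**Figure D2:**
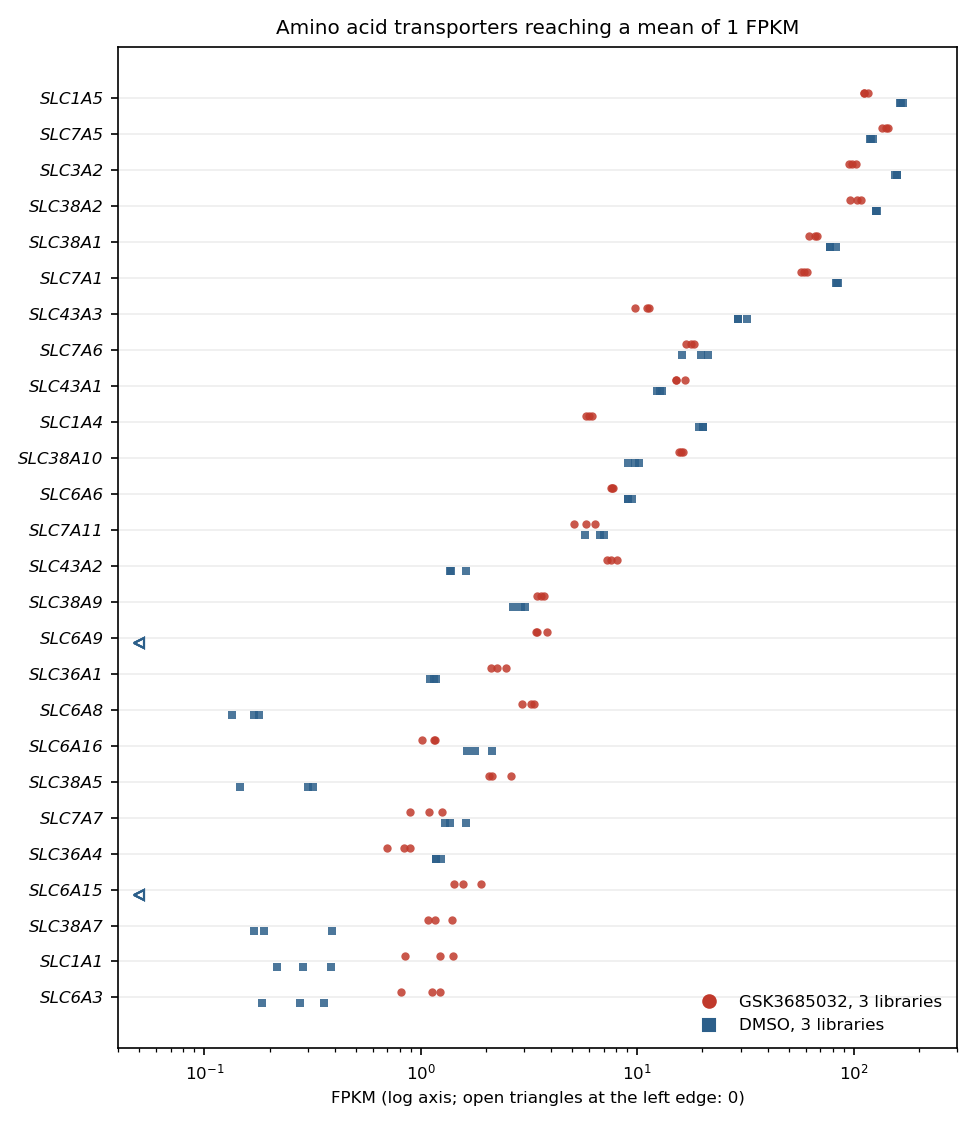
FPKM per library (log axis) of the 26 members whose mean reached 1 FPKM in a group, with GSK3685032 (circles) drawn above DMSO (squares) for each gene and values of 0 as open triangles at the left edge. The 6 most abundant carriers lie above 50 FPKM in every library and change by less than 0.7 on the log2 scale, while SLC6A9, SLC6A15, SLC6A8 and SLC38A5 are at or below 0.319 FPKM with DMSO and above 1 FPKM with the inhibitor.

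The heavy chain SLC3A2 fell while its main light chain SLC7A5 was slightly higher. SLC3A2 (ENSG00000168003, chromosome 11, 62856004 to 62888880), the heavy chain that carries SLC7 light chains to the membrane, measured 103, 94.8 and 97.9 FPKM with the inhibitor and 156, 159 and 159 FPKM with DMSO, a fall by 0.69 on the log2 scale (SE 0.046, edgeR adjusted p = 1.15e-06). SLC7A5 (ENSG00000103257, chromosome 16, 87830023 to 87869507), its partner in the exchange of leucine and other large neutral amino acids, measured 144, 140 and 135 FPKM with the inhibitor and 120, 123 and 119 FPKM with DMSO. The groups did not overlap and SLC7A5 was called higher, by a small amount (log2 fold change 0.21, SE 0.044, edgeR adjusted p = 0.00221, and 0.38 under upper-quartile scaling, edgeR adjusted p = 2.91e-05). The 0.21 lay close to the median of 0.14 over all tested genes. Over the tested genes with a mean of at least 10 FPKM, the level of SLC7A5, the median was -0.22. Its pseudogenes SLC7A5P1 and SLC7A5P2, which share sequence with it, reached at most 0.702 FPKM with the inhibitor and 2.31 FPKM with DMSO. SLC7A5 was the most abundant member with the inhibitor, and SLC1A5 with DMSO.

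The other light chains were not called. SLC7A6, which exchanges cationic for neutral amino acids, measured 17.7, 18.4 and 16.7 FPKM with the inhibitor and 16.2, 21.1 and 19.7 FPKM with DMSO, with overlapping groups (edgeR adjusted p = 0.268). Without DMSO replicate 1 it was called lower (log2 fold change -0.23, edgeR adjusted p = 0.00954). It overlaps SLC7A6OS on the opposite strand over 17321 bases, a gene at 5.51 FPKM with the inhibitor and 11.7 FPKM with DMSO, and reads of the pair cannot be told apart if strand was not used in counting. SLC7A11, the cystine and glutamate exchanger that feeds glutathione synthesis, measured 5.76, 5.08 and 6.38 FPKM with the inhibitor and 6.73, 5.71 and 7.02 FPKM with DMSO (log2 fold change -0.18, SE 0.095, edgeR adjusted p = 0.119). Its groups overlapped, and it was called lower without DMSO replicate 2 (log2 fold change -0.26, edgeR adjusted p = 0.0318). SLC7A7 measured 1.09, 0.891 and 1.25 FPKM against 1.61, 1.37 and 1.29 FPKM with DMSO (edgeR adjusted p = 0.0563). This cationic and neutral exchanger came under the threshold without inhibitor replicate 3 (edgeR adjusted p = 0.0390) and with DESeq2 (adjusted p = 0.0410). SLC7A8 was at 0.0109 to 0.0431 FPKM with the inhibitor and at 0 in every DMSO library.

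Summed over SLC7A5, SLC7A6, SLC7A7, SLC7A8 and SLC7A11, the light chains came to 164 ± 4.65 FPKM with the inhibitor and 148 ± 3.37 FPKM with DMSO. The ratio of this sum to SLC3A2 was 1.64, 1.74 and 1.63 in the inhibitor libraries and 0.925, 0.950 and 0.930 in the DMSO libraries. The 2 groups of ratios did not overlap, which follows from the summed light chains being higher and SLC3A2 lower in every inhibitor library. The difference of 0.733 exceeded the SD within either group, 0.0601 with the inhibitor and 0.0131 with DMSO. SLC7A5 made up most of the sum, and its own ratio to SLC3A2 was 1.42 ± 0.0531 with the inhibitor and 0.764 ± 0.0103 with DMSO. SLC3A1, the heavy chain of kidney cystine transport, stayed at or under 0.0537 FPKM in every library, and its light chain SLC7A9 at or under 0.110 FPKM.

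**Figure D3:**
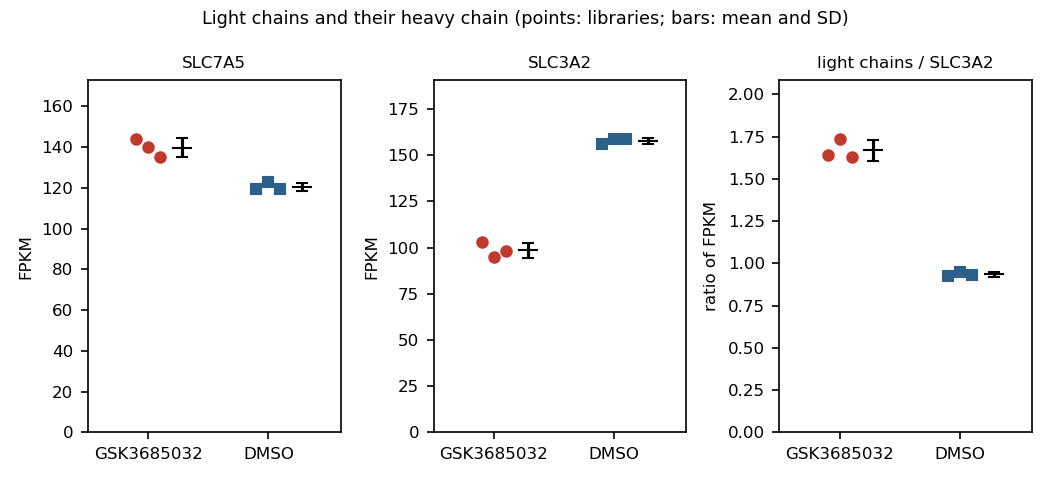
FPKM of the light chain SLC7A5 and the heavy chain SLC3A2, and the ratio of summed light chain FPKM to SLC3A2 FPKM, in 3 libraries with GSK3685032 (circles) and 3 with DMSO (squares), with mean and SD beside them. SLC7A5 is slightly higher and SLC3A2 lower with the inhibitor, and the ratio is 1.67 ± 0.0601 against 0.935 ± 0.0131 with DMSO.

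Among carriers of cationic amino acids, SLC7A1 (chromosome 13, 29509414 to 29595688), the main uptake route for arginine and lysine in many dividing cells, measured 60.6, 57.3 and 58.7 FPKM with the inhibitor and 84.2, 83.1 and 83.5 FPKM with DMSO. It fell by 0.51 on the log2 scale (SE 0.042, edgeR adjusted p = 3.76e-06). SLC7A2, a related carrier induced in activated macrophages, was at 0.725, 0.835 and 0.664 FPKM with the inhibitor, against 4 counts in all 3 DMSO libraries together (edgeR adjusted p = 1.20e-06). SLC7A3, on chromosome X, did not pass the filter, with 0.253, 0.0566 and 0.175 FPKM in the inhibitor libraries and 0 in all DMSO libraries. Even with the inhibitor both were far below SLC7A1.

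The SLC43 family, which lets its substrates pass without sodium, moved in both directions. SLC43A2 (ENSG00000167703, chromosome 17, 1569268 to 1628840), a facilitator of large neutral amino acids, measured 8.02, 7.26 and 7.56 FPKM with the inhibitor and 1.62, 1.38 and 1.37 FPKM with DMSO. It was 5.20-fold higher (log2 fold change 2.38, SE 0.080, edgeR adjusted p = 2.34e-08). SLC43A1, which has like substrates, measured 16.6, 15.0 and 15.1 FPKM with the inhibitor and 13.0, 12.4 and 12.8 FPKM with DMSO (log2 fold change 0.29, SE 0.060, edgeR adjusted p = 0.00186, and 0.46 under upper-quartile scaling). SLC43A3 (chromosome 11, 57406954 to 57427580), known as a carrier of purine nucleobases despite its family, measured 11.4, 9.72 and 11.1 FPKM with the inhibitor and 29.2, 32.1 and 29.1 FPKM with DMSO, and fell by 1.49 on the log2 scale (SE 0.072, edgeR adjusted p = 1.53e-07).

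Of the 4 SLC38 members outside the glutamine carriers above, which act at lysosomes or are less studied, 3 were called higher, beside 38.1% of all tested genes. SLC38A9, the lysosomal arginine carrier that signals to mTORC1, measured 3.60, 3.70 and 3.44 FPKM with the inhibitor and 2.67, 2.91 and 3.03 FPKM with DMSO (log2 fold change 0.31, SE 0.072, edgeR adjusted p = 0.00365, and 0.48 under upper-quartile scaling). SLC38A7, which releases glutamine from lysosomes, measured 1.16, 1.39 and 1.08 FPKM against 0.388, 0.170 and 0.188 FPKM with DMSO (log2 fold change 2.27, SE 0.305, edgeR adjusted p = 0.000117). SLC38A10 (chromosome 17, 81244811 to 81295547) measured 15.5, 16.0 and 16.2 FPKM with the inhibitor and 9.78, 9.02 and 10.2 FPKM with DMSO (log2 fold change 0.71, SE 0.050, edgeR adjusted p = 1.53e-06). Groups did not overlap for any of the 3, nor for 71.7% of all tested genes. SLC38A6 was at 0.765 ± 0.0670 FPKM with the inhibitor and 0.587 ± 0.133 FPKM with DMSO and was not called (edgeR adjusted p = 0.159), except under upper-quartile scaling (log2 fold change 0.54, edgeR adjusted p = 0.0484).

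In the proton-coupled SLC36 family, SLC36A1 (chromosome 5, 151437046 to 151492379), an exporter of small amino acids at the lysosome, measured 2.12, 2.47 and 2.25 FPKM with the inhibitor and 1.15, 1.10 and 1.18 FPKM with DMSO (log2 fold change 0.99, SE 0.105, edgeR adjusted p = 2.39e-05). SLC36A4 measured 0.894, 0.699 and 0.837 FPKM against 1.18, 1.18 and 1.24 FPKM with DMSO and fell by 0.56 on the log2 scale (SE 0.131, edgeR adjusted p = 0.00381). With inhibitor replicate 1 alone against DMSO, a fit that takes its spread from the DMSO libraries only, SLC36A4 was at a log2 fold change of -0.40 and not called (edgeR adjusted p = 0.0675). SLC36A2 was at 0.127 to 0.266 FPKM with the inhibitor and at 0 in all DMSO libraries, at least 16.1-fold higher (edgeR adjusted p = 7.60e-05, DMSO set at 12 counts over the group). It overlaps ATP6V1G1P5 on the opposite strand over 355 bases, a gene at 0.577 FPKM with the inhibitor and 0 with DMSO. Reads of that overlap cannot be told apart if strand was not used in counting. SLC36A1 and SLC36A4, the family members at 1 FPKM or more, were called in opposite directions.

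**Figure D4:**
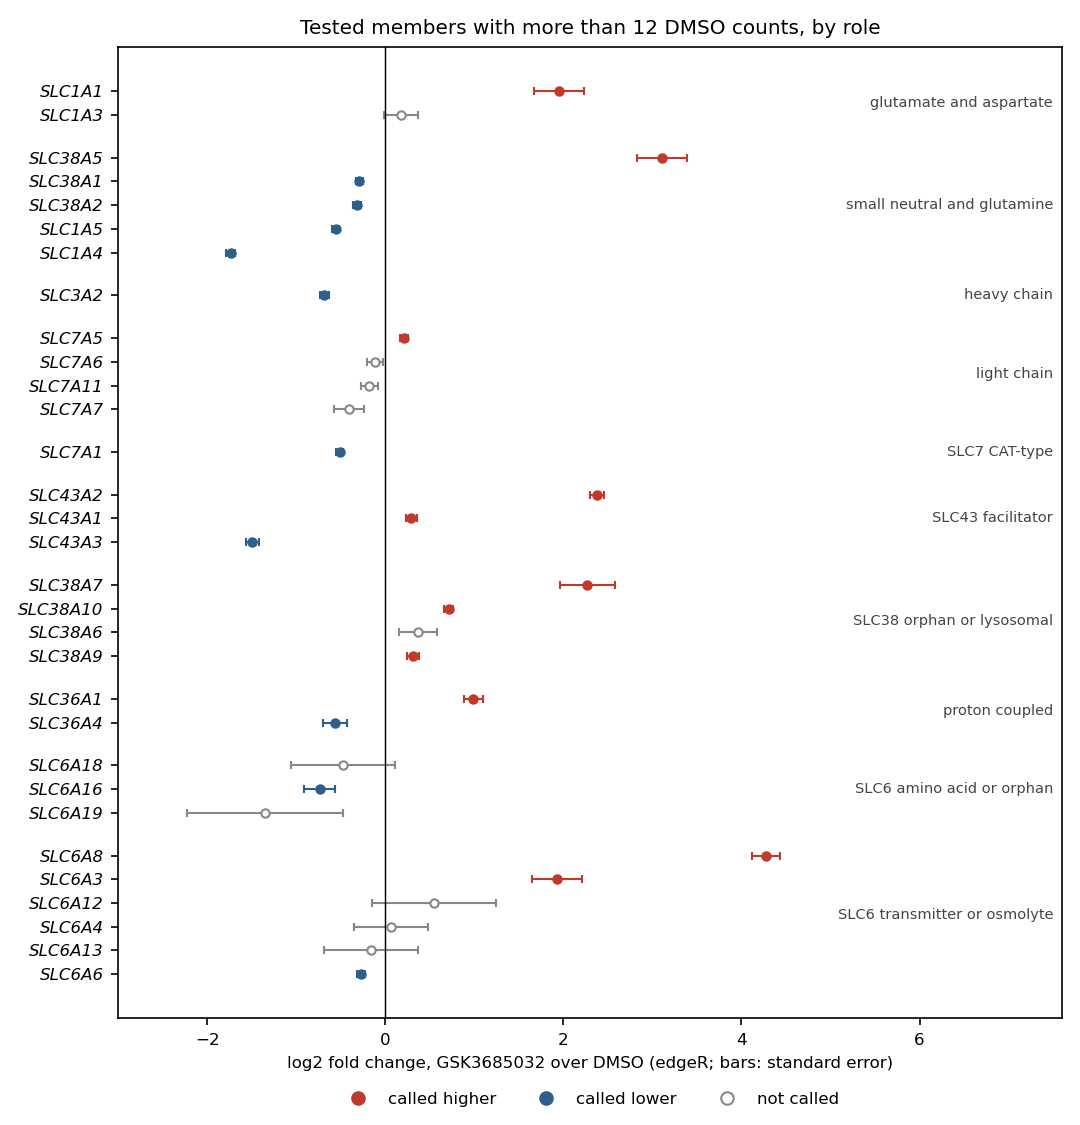
Log2 fold change (GSK3685032 over DMSO) with its standard error from edgeR for the 31 tested members with more than 12 DMSO counts, grouped by role. Filled points are called at an adjusted p under 0.05. Of the carriers of glutamine and small neutral amino acids all but SLC38A5 are lower, and SLC6A8 has the largest increase plotted, 4.27.

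SLC1 carriers of glutamate and aspartate were at low level throughout. SLC1A1 measured 0.844, 1.41 and 1.22 FPKM with the inhibitor and 0.217, 0.384 and 0.285 FPKM with DMSO (log2 fold change 1.95, SE 0.279, edgeR adjusted p = 0.000180). SLC1A7, known from the retina, was at 0.566, 0.837 and 0.548 FPKM with the inhibitor and at 0 in all DMSO libraries, at least 62.4-fold higher (edgeR adjusted p = 2.65e-06). This bound sets DMSO at a floor of 12 counts over the group, or 3 read pairs, and covers counting error only. SLC1A3, a glutamate carrier of glia, was at 0.148 ± 0.0181 and 0.131 ± 0.0131 FPKM and was not called (edgeR adjusted p = 0.453). It overlaps ENSG00000250155 on the opposite strand over 22118 bases, a gene at 1.28 FPKM with the inhibitor and 0.991 FPKM with DMSO. Reads of that overlap cannot be told apart if strand was not used in counting. SLC1A2 had 4 counts in 1 inhibitor library and 0 elsewhere.

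The SLC6 family held both members listed at 0 in DMSO that reached 1 FPKM with the inhibitor. SLC6A9 (ENSG00000196517, chromosome 1, 43991500 to 44031467), the glycine transporter GlyT1, was at 3.84, 3.42 and 3.46 FPKM with the inhibitor and at 0 in every DMSO library, at least 334-fold higher (edgeR adjusted p = 5.54e-08). SLC6A15 (ENSG00000072041, chromosome 12, 84859491 to 84913629), a carrier of branched-chain amino acids and proline best known from brain, was at 1.43, 1.90 and 1.57 FPKM with the inhibitor and at 0 with DMSO, at least 584-fold higher (edgeR adjusted p = 4.23e-08). Both passed the filter through their inhibitor counts, which nearly fixed their direction. Both bounds set DMSO at 12 counts over the group and cover counting error only. These 2 were the only members with at least 1 FPKM in every inhibitor library and under 0.1 FPKM in every DMSO library, a pattern that 1.45% of all 35974 genes showed, and no member did the reverse. SLC6A9 overlaps CCDC24 on the opposite strand over 5029 bases, a gene at 0.697 FPKM with the inhibitor and 0.136 FPKM with DMSO.

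SLC6A8 (ENSG00000130821, chromosome X, 153687926 to 153696588), the creatine transporter, measured 3.33, 3.24 and 2.94 FPKM with the inhibitor and 0.134, 0.178 and 0.169 FPKM with DMSO. It was 19.4-fold higher (log2 fold change 4.27, SE 0.159, edgeR adjusted p = 3.70e-08). Its near-identical pseudogene SLC6A10P was at 0.0336 to 0.144 FPKM with the inhibitor and 0 with DMSO, and how reads shared between the 2 were counted is not stated. Both tested members on chromosome X, SLC6A8 and SLC38A5, were called higher, as were 51.9% of the 761 tested genes of that chromosome. SLC6A3, the dopamine transporter, measured 1.12, 0.813 and 1.23 FPKM against 0.356, 0.185 and 0.276 FPKM with DMSO (log2 fold change 1.93, SE 0.279, edgeR adjusted p = 0.000193).

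2 expressed SLC6 genes were lower. SLC6A6 (chromosome 3, 14402576 to 14489349), the taurine transporter, measured 7.54, 7.61 and 7.74 FPKM with the inhibitor and 9.08, 9.45 and 9.02 FPKM with DMSO (log2 fold change -0.27, SE 0.044, edgeR adjusted p = 0.000377). That call ended under upper-quartile scaling (log2 fold change -0.10, edgeR adjusted p = 0.0641). SLC6A16, an orphan carrier, measured 1.15, 1.16 and 1.01 FPKM against 2.14, 1.77 and 1.63 FPKM with DMSO (log2 fold change -0.74, SE 0.169, edgeR adjusted p = 0.00348). With inhibitor replicate 1 alone the fold change was close to this (log2 -0.66) but not called (edgeR adjusted p = 0.0630).

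The remaining 5 tested members, SLC6A4, SLC6A12, SLC6A13, SLC6A18 and SLC6A19, lay between 0 and 0.206 FPKM in every library and none was called (edgeR adjusted p = 0.499 for SLC6A18). They carry serotonin, betaine, GABA and, in kidney and gut, neutral amino acids. Among the members that did not pass the filter, SLC1A2, SLC6A5, SLC6A17 and SLC7A14 had counts in a single inhibitor library and 0 in all DMSO libraries. SLC38A3, SLC38A4 and SLC7A4 stayed at or under 0.0380 FPKM. SLC7A3, SLC7A8, SLC7A9 and SLC3A1 are given above. The glycine transporter of spinal cord, SLC6A5, thus stayed near 0 (at most 0.00854 FPKM) where SLC6A9 rose.

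Promoter sequence was read for the members that RefSeq's promoter table (GRCh38.p14) lists, 35 of 48, taking for each the listed start nearest to the deposited gene start. SLC6A15 is among those without an entry. The nearest start lay within 500 bases for 33 of the 35, at 2030 bases for SLC38A1 and at 10029 bases for SLC7A7. CpG dinucleotides, the sites that DNMT1 methylates, were counted in the 250 bases before the start. The median was 26 (12 to 43) in 9 members at 10 FPKM or more with DMSO, and 21 (1 to 23) in 7 members at 1 to 10 FPKM. These counts depend on the start taken. SLC1A4 had 12 at the nearest start and 38 at another, SLC36A1 1 and 13, and SLC38A9 22 and 1. Among members under 1 FPKM with DMSO, the median was 9 (2 to 25) in the 7 called higher and 9.5 (1 to 29) in the other 12, against 11 over all 35116 listed promoters. Among the other 12, SLC38A4, SLC6A5, SLC6A17, SLC7A8, SLC7A9 and SLC7A14 did not pass the filter and could not be called. Members of low level called higher and the other 12 covered nearly the same range, and methylation was not measured in these libraries. These 4 windows are shown, with CpG in capitals, because they span that range: SLC6A9 (chr1:44031463-44031712, minus strand, 9 CpG) and SLC6A8 (chrX:153687676-153687925, plus strand, 25 CpG) rose, SLC1A7 (chr1:53142639-53142888, minus strand, 2 CpG) rose with almost none, and SLC6A17 (chr1:110150244-110150493, plus strand, 21 CpG), a vesicular carrier of neurons, had 4 counts in 1 inhibitor library.
SLC6A9: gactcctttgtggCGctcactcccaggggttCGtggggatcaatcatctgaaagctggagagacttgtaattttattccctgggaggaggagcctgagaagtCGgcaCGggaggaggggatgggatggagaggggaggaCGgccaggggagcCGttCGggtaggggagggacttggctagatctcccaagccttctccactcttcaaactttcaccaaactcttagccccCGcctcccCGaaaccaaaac
SLC6A8: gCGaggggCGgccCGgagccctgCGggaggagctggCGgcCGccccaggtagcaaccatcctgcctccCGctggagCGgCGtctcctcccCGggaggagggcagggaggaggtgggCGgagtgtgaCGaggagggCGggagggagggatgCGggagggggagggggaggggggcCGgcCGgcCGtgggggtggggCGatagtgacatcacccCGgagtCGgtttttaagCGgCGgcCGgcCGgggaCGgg
SLC1A7: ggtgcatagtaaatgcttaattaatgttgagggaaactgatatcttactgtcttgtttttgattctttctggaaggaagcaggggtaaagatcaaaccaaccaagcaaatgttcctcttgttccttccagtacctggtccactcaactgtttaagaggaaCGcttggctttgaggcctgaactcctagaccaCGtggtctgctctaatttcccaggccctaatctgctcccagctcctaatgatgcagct
SLC6A17: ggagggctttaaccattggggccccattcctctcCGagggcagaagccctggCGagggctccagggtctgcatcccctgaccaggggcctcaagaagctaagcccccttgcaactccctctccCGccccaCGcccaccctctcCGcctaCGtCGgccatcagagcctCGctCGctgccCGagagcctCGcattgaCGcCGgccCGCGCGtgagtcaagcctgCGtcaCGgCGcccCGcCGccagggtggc

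Several amino acid carriers are known targets of ATF4, the transcription factor of amino acid shortage, which binds C/EBP-ATF response elements. The letters TGATGCAA, on either strand, were found in the 300-base window (250 before to 50 after the start) of 3 of 56 listed starts of members, or 5.36%, and in 0.866% of all listed promoters. With 1 start per gene, the nearest as above, 1 of 35 members (2.86%) held it, SLC1A3. Of these genes SLC1A4 and SLC1A5 fell and SLC1A3 was not called. The sites are shown with the match in capitals: SLC1A4 (chr2:64989381-64989410, plus strand, 7 bases before an inner start), SLC1A5 (chr19:46784893-46784922, minus strand, 97 bases before an inner start) and SLC1A3 (chr5:36596357-36596386, plus strand, 220 bases before the start). A match describes letters and is not a bound site.
SLC1A4: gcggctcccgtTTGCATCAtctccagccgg
SLC1A5: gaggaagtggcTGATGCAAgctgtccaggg
SLC1A3: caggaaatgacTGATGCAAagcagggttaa

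ATF4 mRNA measured 399, 376 and 382 FPKM with the inhibitor and 434, 451 and 441 FPKM with DMSO (log2 fold change -0.20, SE 0.044, edgeR adjusted p = 0.00244). That small fall was lost under upper-quartile scaling (log2 fold change -0.03, edgeR adjusted p = 0.529) and with inhibitor replicate 1 alone (log2 fold change -0.13, edgeR adjusted p = 0.0642). MYC, which is known to raise SLC1A5 and SLC7A5, measured 116, 105 and 110 FPKM with the inhibitor and 188, 184 and 191 FPKM with DMSO (log2 fold change -0.77, SE 0.050, edgeR adjusted p = 8.82e-07).

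Genes of the response to amino acid shortage were higher in 19 of 31 tested and lower in 6, with a median log2 fold change of 0.38, beside 38.1% higher, 27.3% lower and 0.14 over all genes. Under upper-quartile scaling 24 were higher and 4 lower. That scaling also moved all 20783 tested genes, from 7918 higher and 5672 lower to 9312 and 4344. Genes are named here by the largest difference in log2(FPKM + 0.5) among called genes that reach 1 FPKM in a group, a measure that gives less weight to genes of low level than the log2 fold change. PHGDH, the first enzyme of serine synthesis, was at 6.96, 6.75 and 5.96 FPKM with the inhibitor and had 5 counts over the DMSO libraries. STC2, a secreted glycoprotein, was at 12.6 ± 0.0868 FPKM with the inhibitor and had 8 counts over the DMSO libraries. The mitochondrial folate enzyme ALDH1L2 was at 5.14 ± 0.483 FPKM with the inhibitor and 0.0796 ± 0.0150 FPKM with DMSO, and the lipoprotein receptor VLDLR at 1.56 ± 0.214 and 0.0503 ± 0.0117 FPKM. Enzymes of amino acid metabolism, 6 of which are in both lists, were higher in 29 of 53 tested and lower in 13 (median 0.31; 37 and 9 under upper-quartile scaling). By the same measure and limit, the leading enzymes beside PHGDH were ASS1, which makes argininosuccinate from citrulline and was at 42.8 ± 0.891 FPKM with the inhibitor against 7 counts over the DMSO libraries, CDO1, which oxidises cysteine and was at 3.02 ± 0.313 FPKM against 4 counts over the DMSO libraries, and OAT, ornithine aminotransferase, at 49.8 ± 1.58 FPKM with the inhibitor and 15.8 ± 0.987 FPKM with DMSO. All 7 genes named here, which were chosen among called genes, were higher (largest edgeR adjusted p = 1.20e-06, CDO1). PHGDH, STC2, ASS1 and CDO1, with 4 to 8 counts over the DMSO libraries, passed the filter through their inhibitor counts. That nearly fixed their direction.

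Genes that sense amino acids for mTORC1 were higher in 16 (41.0%) and lower in 14 (35.9%) of 39 tested (19 and 9 under upper-quartile scaling). Over all tested genes the shares were 38.1% and 27.3%, and under that scaling 9312 of 20783 were higher and 4344 lower. The median log2 fold change was -0.02 over the list and 0.14 over all tested genes. SESN2, a leucine sensor that restrains mTORC1 and is also in the shortage list, measured 22.8, 22.3 and 22.1 FPKM with the inhibitor and 9.71, 11.2 and 11.8 FPKM with DMSO (log2 fold change 1.03, SE 0.074, edgeR adjusted p = 1.69e-06). RRAGD, a Rag GTPase that recruits mTORC1 to lysosomes, measured 1.94, 2.24 and 1.99 FPKM against 5.78, 6.53 and 6.58 FPKM with DMSO and fell by 1.62 on the log2 scale (SE 0.088, edgeR adjusted p = 2.96e-07). WDR59, of the GATOR complex, was at 8.59 ± 0.347 FPKM with the inhibitor and 3.59 ± 0.127 FPKM with DMSO, and MLST8, an mTOR subunit, at 14.7 ± 0.852 and 6.77 ± 0.114 FPKM (edgeR adjusted p at most 3.60e-07 for both). The genes named here, chosen for the largest changes among called genes, thus moved in both directions.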

How the data were processed

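The authors deposited, for each gene and library, an estimated count and an FPKM value, per the file headers. Libraries were made from oligo(dT)-selected RNA with dUTP strand marking and sequenced as paired ends, per the labels' protocols. The submitters' processing notes list edgeR, DESeq2, StringTie 2.1.6, HISAT2 2.2.1 and cutadapt 1.9 without their roles. The notes name build mm10, but the IDs are human: all 48 members are in GENCODE 29 and overlap their GRCh38 position. No source used here states whether counting used strand. The counts are whole numbers with a mean of 1320 genes per library at 4, against 726 at 3 and 474 at 5, so 4 counts were taken as about 1 read pair.

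Counts were tested as deposited with edgeR 4.0.16 (R 4.3.3; quasi-likelihood, filterByExpr, TMM, two-sided), fitted on the whole table with Benjamini-Hochberg adjustment over 20783 genes and called at 0.05. Standard errors are the log2 fold change over the square root of F. Alternatives used DESeq2 1.42.0 and limma 3.58.1 (log2 of FPKM plus a pseudocount), other scalings and filters, and libraries left out. The fit was checked on simulated counts. Members, lists and the rule for named genes (members reaching 1 FPKM in a group, and up to 4 called genes per list with the largest change) were chosen with earlier results of these data known. Separate cultures are not mentioned in the labels, and p-values therefore reflect only how these libraries vary, possibly for technical reasons. No 2 libraries held identical values. The values of 1 member are not reported here.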

Additional observations from a re-analysis of the deposited data

How the results depend on the processing

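Over 17 alternatives, 11 to 19 transporters were called higher and 8 to 12 lower, and neither count moved by more than 1.5 times. The number tested differed between settings. With at least 1 FPKM in 3 libraries, 11 of 24 members were higher and 10 lower, beside 4826 and 4414 of 12395 genes. Without the filter on low counts, 19 of 48 were higher and 10 lower, beside 8379 and 5318 of 35974 genes. With 1 library left out at a time, 16 to 18 were higher and 10 to 12 lower. Under upper-quartile scaling 4344 of all tested genes were lower in place of 5672. The sensing list then had 9 genes lower in place of 14 and the list of carriers outside the member families 1 in place of 3. That list also had 1 lower with inhibitor replicate 1 alone. With limma and a pseudocount of 0.1, 3 of the other carriers were higher in place of 6. In place of the 2 members at 1 FPKM or more in every inhibitor library and under 0.1 in every DMSO library, limits of 0.5 and 0.2 gave 5 and limits of 2 and 0.05 gave 1. The difference in the ratio of light chains to SLC3A2 was 0.585 from counts and 0.656 for SLC7A5 alone, and 0.699 to 0.753 with a library left out.

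Members with no call changed sign in these cases, and the cause was not tested. Upper-quartile scaling gave log2 fold changes of 0.052 for SLC7A6 and 0.012 for SLC6A13. With 1 library left out at a time, log2 fold changes lay between -0.43 and 0.20 for SLC6A13, -0.088 and 0.25 for SLC6A4, -0.78 and 0.16 for SLC6A18, and -0.068 and 0.86 for SLC6A12. Taking inhibitor replicate 1 alone gave 0.27 for SLC6A13, -0.060 for SLC6A12 and -0.00666 for SLC1A3. All but SLC7A6 lay under 0.21 FPKM in every library.

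Libraries of the same number did not deviate together (correlations of 0.0901, 0.0532 and -0.204 over 10083 genes), so the numbers were not taken as pairs. With a replicate block, 16 transporters were higher and 11 lower. SLC7A11 was then called (log2 fold change -0.18, edgeR adjusted p = 0.0153).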

Other observations

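On a list of carriers outside these families, not all of which carry amino acids or peptides, 6 of 14 tested were higher and 3 lower. These shares of 42.9% and 21.4% stand beside 38.1% and 27.3% of all tested genes. The median log2 fold change was 0.19, against 0.14 over all tested genes. Under upper-quartile scaling 7 were higher and 1 lower, beside 9312 and 4344 of all 20783 tested genes. MFSD12, which brings cysteine into lysosomes and melanosomes, measured 11.8, 13.0 and 12.8 FPKM with the inhibitor and 6.91, 7.02 and 7.25 FPKM with DMSO (log2 fold change 0.82, SE 0.050, edgeR adjusted p = 5.79e-07). SPNS1, a lysosomal carrier known to export lysophospholipids, was at 4.41 ± 0.231 FPKM with the inhibitor and 6.94 ± 0.719 FPKM with DMSO (n = 3 each, edgeR adjusted p = 0.000173). The lysosomal histidine and peptide carrier SLC15A4 was at 3.45 ± 0.240 and 4.37 ± 0.0702 FPKM (edgeR adjusted p = 0.00360). The peptide carrier SLC15A2 was at 0.721 ± 0.0394 and 1.02 ± 0.0914 FPKM (edgeR adjusted p = 0.0156). Both SLC15 calls ended under upper-quartile scaling, where SLC15A4 had a log2 fold change of -0.17 (edgeR adjusted p = 0.0755) and SLC15A2 one of -0.34 (edgeR adjusted p = 0.0824). With inhibitor replicate 1 alone, where only the DMSO libraries give the spread, the log2 fold changes were -0.22 and -0.48 (edgeR adjusted p = 0.112 and 0.113). Without DMSO replicate 3, SLC15A2 was at -0.46 (edgeR adjusted p = 0.0518), against -0.51 with all libraries.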
